A study of Schmidtea mediterranea with 36 samples.

Results

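The 200 transcripts described here were those with the highest level in X1 relative to both other FACS populations of the planarian Schmidtea mediterranea, out of 26558 transcripts measured. RNA was sequenced from asexual planarians starved for 1, 7 or 30 days (1dS, 7dS and 30dS), and their cells were sorted into X1 (dividing stem cells, in S and in G2/M phase), X2 (G0/G1 stem cells mixed with progeny) and Xins (differentiated cells). With 4 replicates in each of the 9 groups there were 36 libraries. No transgene, knockdown or drug was used in any group, and the 1dS planarians served as the least starved reference. Populations are sort gates on DNA content and cytoplasm, not single cell types, and the number of planarians pooled per replicate is given only for 30dS. Nothing states whether the 3 populations of a replicate number came from the same planarians, and a p-value therefore reflects only how much these libraries varied, which may be technical.

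Members were chosen from the measured levels. All libraries were first brought to the same total of 1000000, log2(TPM + 1) was averaged over the 12 libraries of each population, and the transcripts with an X1 mean of at least 10 TPM were ordered by the X1 mean minus the higher of the X2 and Xins means (termed rule difference below). The first 200 of 5878 such transcripts are the members. Levels between populations therefore follow from the choice and are given as a description, with no test. The 3 starvation times entered the order with equal weight, so changes over time within a population were not used by it.

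Planarian stem cells, called neoblasts, are the only dividing somatic cells of the animal and give rise to all of its cell types. Cells that copy their DNA and divide hold more DNA than other cells, and the X1 gate takes these cells, which irradiation removes. Genes of DNA replication and mitosis are known for high RNA levels in such cells. One member carried a gene symbol in the tables of the study, the mitotic entry kinase cdk1, out of 150 symbols placed on transcripts there. All other members are named by their deposited identifier, and no role is given for them.

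The deposited values are normalized TPM, a length-corrected abundance, and how it was normalized between libraries is not given in the sources used here. The depth of the libraries is unknown, because such values do not hold read numbers. Library totals ranged from 638389 to 1935392 normalized TPM, and between 1733 and 10378 transcripts per library were listed at 0. Within a group, libraries correlated across transcripts with r between 0.859 and 0.991. Of the stem cell markers considered, only cdk1 was tied to a deposited identifier. It was at 44.0 to 68.7 normalized TPM in the X1 libraries, at 1.45 to 12.7 in X2 and at 0 to 0.310 in Xins, with no overlap between the populations. Because cdk1 is itself a member, this separation follows from the choice and is no check of the sort gates.

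Members spanned a wide range of abundance. Their X1 means lay between 10.4 and 6959 TPM with a median of 40.4, and 55 of 200 were at 100 TPM or more. Their X2 means had a median of 5.52 TPM (0.696 to 1118) and their Xins means one of 1.16 TPM (0.0366 to 464). The rule difference ran from 3.90 down to 2.19 on the log2(TPM + 1) scale, with a median of 2.55, which is 5.87-fold. X2 held the higher of the other levels for 193 members and Xins for 7. Over the 5878 ordered transcripts X2 was above Xins for 64.2%, against 96.5% of the members. All 200 members were above 0 in every X1 library, whereas 10 were listed at 0 in at least 1 X2 library and 19 in at least 1 Xins library. All 10 were at 0 in X2 1dS replicate 1, where 10378 transcripts were at 0, the most of any library. Of the 19, 12 were at 0 in Xins 1dS replicate 1, where 6092 transcripts were. For 50 members the lowest X1 library did not exceed the highest library of the other populations.

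**Figure D1:**
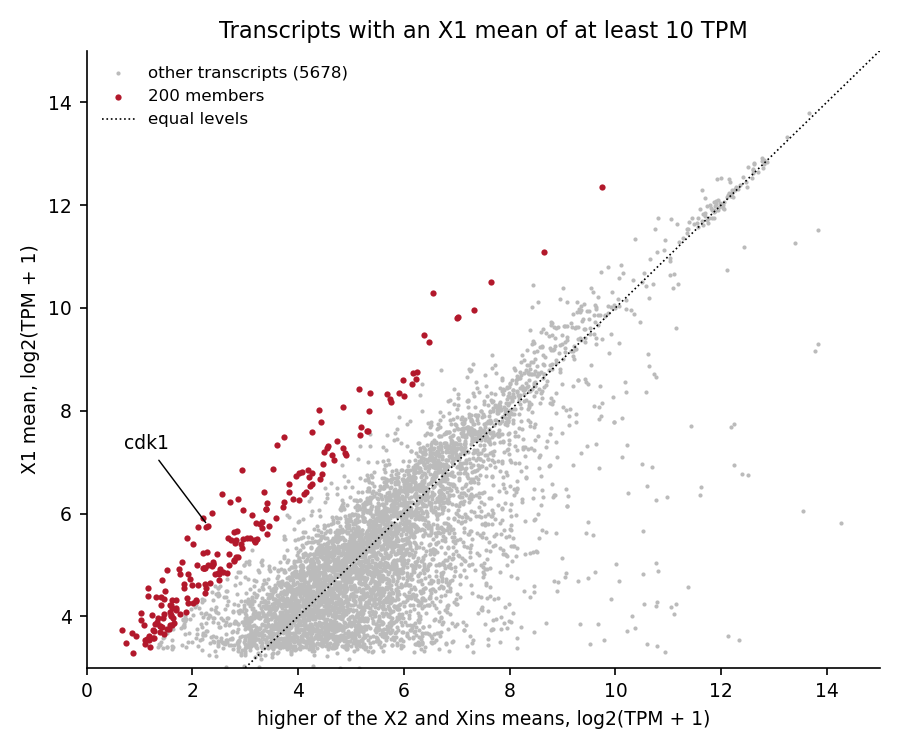
X1 mean plotted against the higher of the X2 and Xins means, both as log2(TPM + 1) over 12 libraries, for the 5878 transcripts with an X1 mean of at least 10 TPM. The 200 members (red) lie 2.19 to 3.90 above the line of equal levels, and other transcripts (grey) lie on both sides of it.

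The edge of the set was not a gap in the data. The last members inside were dresden_comp16022_c0_seq1 and dresden_comp6028_c0_seq1, each with a rule difference of 2.19. The first transcripts outside, dresden_comp278_c0_seq1 and dresden_comp1420_c0_seq1, had 2.19 too, and differed from them in the fourth digit.

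The 5 leading members were all lower in X2 than in X1 and lowest in Xins, and were called lower in X2 at 7dS by limma, although not all of these calls held when libraries were left out. dresden_comp5956_c0_seq1, first in the order, was at 147, 181, 143 and 159 normalized TPM in X1 at 1dS, at 72.4, 110, 75.6 and 107 at 7dS and at 120, 97.0, 93.3 and 107 at 30dS. In X2 it was at 14, 16.9, 17 and 14.7 at 1dS, at 3.25, 4.01, 2.25 and 5.24 at 7dS and at 6.06, 5.20, 3.14 and 6.12 at 30dS. Each starved X1 and X2 library was below each 1dS library of its population, and no Xins library exceeded 0.741. dresden_comp7682_c0_seq1, second in the order, had means of 113 ± 11.6, 64.3 ± 14.5 and 78.9 ± 10.8 in X1 and of 10.5 ± 0.955, 2.69 ± 1.09 and 4.07 ± 1.5 in X2 at 1dS, 7dS and 30dS (SD, n = 4). It followed the same course as the first member, with all starved libraries below all 1dS libraries in both populations. dresden_comp6732_c0_seq1 was at 240 ± 28.1, 180 ± 17.6 and 146 ± 64.7 in X1 and at 31.9 ± 8.25, 7.61 ± 3.70 and 8.69 ± 3.74 in X2 (same times, SD, n = 4). dresden_comp2787_c0_seq1 was the most abundant of the first 5, at 1441 ± 591, 1274 ± 604 and 1440 ± 786 in X1, and its libraries of different times overlapped there. In X2 it was at 207, 174, 366 and 70.2 at 1dS and at 86.6, 45.2, 86.4 and 27.9 at 7dS, which overlapped (log2 change -1.64, SE 0.51, limma adjusted p = 0.065). This call was lost without X2 1dS replicate 1, 2 or 3 or X2 7dS replicate 2 or 4, with no filter on low values and in the fit of both times alone. dresden_comp7744_c0_seq1 completed the first 5, at 196 ± 88.6, 145 ± 46.9 and 161 ± 26.5 in X1.

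cdk1 (dresden_comp11265_c0_seq1) stood at place 13, with a rule difference of 3.46. In X1 its libraries were at 57.7, 48.2, 59.7 and 68.7 normalized TPM at 1dS, at 50.6, 61.6, 49.0 and 48.3 at 7dS and at 52.3, 53.3, 49.4 and 44.0 at 30dS. These overlapped at all times. In X2 they were at 12.4, 7.73, 12.7 and 6.04 at 1dS, at 2.12, 2.60, 1.45 and 1.88 at 7dS and at 2.92, 3.43, 2.91 and 2.67 at 30dS. All 8 starved X2 libraries lay below the lowest of 1dS. In Xins its highest library was at 0.310. The change of cdk1 in X2 was a fall of 1.79 on the log2 scale at 7dS (SE 0.23, limma adjusted p = 0.00398) and of 1.38 at 30dS (SE 0.23, adjusted p = 0.00427), and both calls held under all 8 alternatives that tested it and without any 1 of the 12 X2 libraries. In X1 the change was -0.15 at 7dS (SE 0.16, adjusted p = 0.605) and -0.22 at 30dS (SE 0.16, adjusted p = 0.459).

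A few members appear in the annotated gene lists of the study, which were drawn up from these X1 libraries or from another experiment and are held here only in shortened form. 3 of the members, dresden_comp16802_c0_seq1, dresden_comp16942_c0_seq1 and dresden_comp18778_c0_seq1, belong to its list of mitotic S phase, the phase in which DNA is copied. dresden_comp18778_c0_seq1 was at 26.7, 57.8, 31.8 and 23.3 normalized TPM in X1 at 1dS and at 16.2, 15, 10.4 and 13.1 at 7dS. It fell by 1.22 on the log2 scale in X1 (SE 0.25, limma adjusted p = 0.016) and by 1.56 in X2 (SE 0.20, adjusted p = 0.00374). dresden_comp16802_c0_seq1 fell by 0.69 in X1 at 7dS (SE 0.17, adjusted p = 0.0345) and by 1.31 in X2 (SE 0.21, adjusted p = 0.00549). dresden_comp16942_c0_seq1 fell by 0.72 in X1 (SE 0.22, adjusted p = 0.0701) and by 0.94 in X2 (SE 0.20, adjusted p = 0.0148). The study took this list from transcripts lowered in these X1 libraries, so the X1 falls are not independent evidence of its direction. After rescaling to equal totals only the call of dresden_comp18778_c0_seq1 in X1 held, and that of dresden_comp16942_c0_seq1 was also lost without X1 1dS replicate 2 or 3 or X1 7dS replicate 2, 3 or 4, and that of dresden_comp16802_c0_seq1 without X1 7dS replicate 3.

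dresden_comp3904_c0_seq1, from the list of transcription elongation, fell in X1. Its mean there went from 154 ± 20.8 normalized TPM (1dS) to 93.1 ± 19.1 (7dS) and 92.4 ± 14 (30dS, SD, n = 4), a log2 change of -0.73 at each time (SE 0.20, limma adjusted p = 0.0443 and 0.053). Both calls ended after rescaling to equal totals and after quantile normalization, that of 7dS also without X1 7dS replicate 3, and that of 30dS without X1 1dS replicate 4 or X1 30dS replicate 2 or 3. dresden_comp6732_c0_seq1, also among the first 5 in the order, is on the list of response to topologically incorrect protein, that is to unfolded protein. Its X1 change was -0.41 at 7dS (SE 0.28, adjusted p = 0.405) and -0.82 at 30dS (SE 0.28, adjusted p = 0.114), neither past the threshold. In X2 it fell, with a change of -2.01 at 7dS (SE 0.34, adjusted p = 0.0071). dresden_comp12125_c0_seq1, from the list of phosphorus metabolic process, rose in X1 and is described with the rises below. dresden_comp2385_c0_seq1, from a list of alpha-amino acid metabolism, ranged from 1.58 to 65.5 in X1. No change of it was called in any population (limma adjusted p between 0.44 and 0.907).

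Members varied more between X1 libraries than most transcripts of that population. The highest of the 12 X1 libraries exceeded the lowest by a median of 3.26-fold over the members (1.25 to 102), and by at least 5-fold for 53 of them (26.5%). Over the 5865 ordered transcripts above 0 in every X1 library the median was 2.75-fold and 10.9% reached 5-fold. Members did not all move together: the correlation of a member with the mean of the others over the 12 X1 libraries had a median of 0.53, ranged from -0.79 to 0.94, exceeded 0.5 for 109 members and was negative for 45. These values describe libraries that share their scaling and depth, so they carry no test.

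The most abundant member varied widely between X1 libraries. dresden_comp68_c0_seq1, named after its values were seen, was at 9501, 10244, 25303 and 2913 normalized TPM in X1 at 1dS, at 1183, 3606, 9368 and 2253 at 7dS and at 1148, 11164, 11530 and 4408 at 30dS. Replicate 3 was the highest library at each time, replicate 1 was the lowest at both starved times, and the times overlapped. The members most like it over the 12 X1 libraries were dresden_comp291_c0_seq1 (r = 0.97), dresden_comp379_c0_seq1 (r = 0.97) and dresden_comp647_c0_seq1 (r = 0.92). A different pattern was shared by dresden_comp2921_c0_seq1 and its nearest members dresden_comp4712_c0_seq1 (r = 0.95), dresden_comp5862_c0_seq1 (r = 0.90) and dresden_comp15022_c0_seq1 (r = 0.89). The members most like cdk1 were dresden_comp17862_c0_seq1 (r = 0.94) and dresden_comp7837_c0_seq1 (r = 0.93).

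In X1 the level of the set as a whole overlapped between the starvation times. Per library, the median member stood at log2(TPM + 1) of 5.41, 5.39, 5.29 and 5.51 at 1dS, of 4.86, 5.54, 5.25 and 5.64 at 7dS and of 5.19, 5.23, 5.06 and 5.73 at 30dS. The 3 times overlapped. The members together made up 2.97% to 5.04% of a library at 1dS, 2.09% to 3.43% at 7dS and 2.17% to 3.60% at 30dS, again with overlap. In these sorted bulk samples fewer cells of a type and less RNA per cell cannot be told apart.

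**Figure D2:**
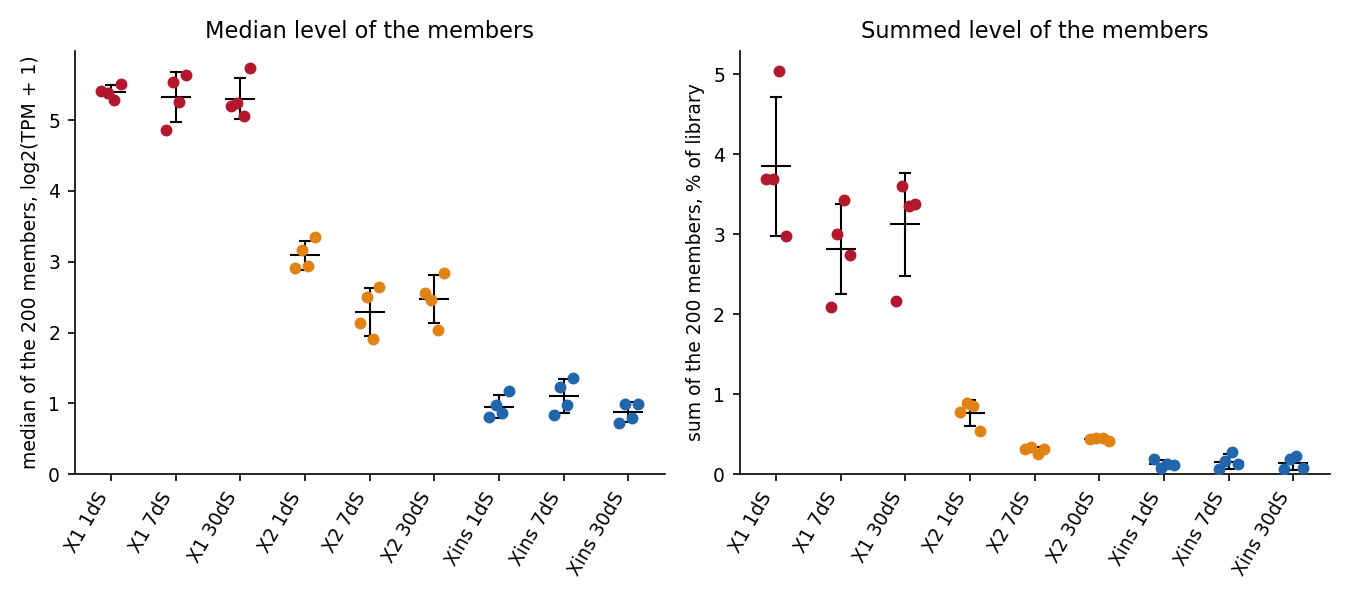
Left, median log2(TPM + 1) of the 200 members in each of the 36 libraries; right, their sum in percent of the library, both after rescaling to equal totals. Points are libraries, bars are the mean and SD of 4. X1 libraries of the 3 times overlap in both plots, whereas all X2 libraries of 7dS and 30dS lie below all of X2 at 1dS.

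Changes over time were tested within each population with limma on log2(normalized TPM + 1), among those transcripts whose mean over its 12 libraries was 1 or more, and called at a Benjamini-Hochberg adjusted p under 0.1, the threshold of the study between times. On this scale the change of a low transcript is understated. In X1 all 200 members were tested. At 7dS against 1dS 20 fell and 6 rose, that is 10% and 3% of the members, where 6.92% of all 13269 transcripts tested fell and 6.77% rose. At 30dS 6 fell and 6 rose, 3% each, against 4.36% and 5.43% of all tested. The median member changed by -0.25 at 7dS and by -0.31 at 30dS on the log2 scale, beside 0.04 and -0.07 for all tested. The shares called were thus within a few percent of those of all transcripts. At an unadjusted p under 0.05 42 of the 200 fell and 11 rose at 7dS, beside 1615 and 1561 of all 13269. At 30dS 36 fell and 10 rose, beside 1428 and 1395. Changes were negative for 67% of the members at 7dS and 72% at 30dS, beside 46.7% and 56.6% of all tested. The members thus leaned toward lower values in X1, but the split of calls moved with scaling. At 7dS 5 members rose and 3 fell after rescaling to equal totals, 5 and 11 with median-of-ratios scaling and 5 and 5 with quantile normalization. At 30dS these counts were 3 and 5, 6 and 2, and 10 and 3. Counts also moved with single libraries: without X1 1dS replicate 2 or 3, X1 7dS replicate 1, 2, 3 or 4, or X1 30dS replicate 2, between 7 and 13 members fell. The 6 rises became 3 without X1 1dS replicate 2 or X1 7dS replicate 3. At 30dS the 6 falls became 0 to 3 without X1 1dS replicate 2, 3 or 4 or X1 30dS replicate 2 or 3, and the 6 rises became 3 without X1 30dS replicate 1.

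Rises in X1 were few, and the largest held up. dresden_comp12125_c0_seq1 was at 19.2, 20.9, 24.7 and 30.8 normalized TPM at 1dS, at 48.5, 59.9, 49.6 and 65.4 at 7dS and at 51.7, 60.5, 58.1 and 60.5 at 30dS. All starved libraries were above all 1dS libraries. Its log2 change was 1.20 at 7dS (SE 0.18, limma adjusted p = 0.00329) and 1.25 at 30dS (SE 0.18, adjusted p = 0.0032), called under all 9 alternatives and without any 1 library. The study's list that holds it was drawn from transcripts raised in these X1 libraries at 7dS. In X2 it was at 7.41 ± 1.31, 8.60 ± 0.572 and 8.32 ± 0.228 at 1dS, 7dS and 30dS (SD, n = 4), with changes of 0.20 and 0.16 (SE 0.16 each, adjusted p = 0.453 and 0.539). dresden_comp14806_c0_seq1 rose in X1 from 19.1 ± 6.48 to 42.3 ± 4.49 at 7dS (log2 change 1.16, SE 0.21, adjusted p = 0.0102). dresden_comp648_c0_seq1, the second most abundant member, was at 1074, 2100, 1520 and 1609 in X1 at 1dS and at 3343, 3391, 3447 and 2588 at 30dS, a log2 change of 1.05 (SE 0.24, adjusted p = 0.0299).

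Among the falls in X1, dresden_comp4103_c0_seq1 had the largest log2 change at 7dS, -2.23 (SE 0.77, limma adjusted p = 0.0983). It was at 47.7, 61.6, 165 and 42.9 normalized TPM at 1dS and at 3.03, 19.0, 34.1 and 15.2 at 7dS. The groups did not overlap, but replicate 3 of 1dS stood far above the rest, and the call was kept in 2 of 12 fits that left out 1 library. The first members of the order fell less and more evenly: dresden_comp5956_c0_seq1 changed by -0.80 at 7dS (SE 0.19, adjusted p = 0.0261) and dresden_comp7682_c0_seq1 by -0.83 (SE 0.19, adjusted p = 0.0248). Both calls ended after rescaling to equal totals and after quantile normalization. By abundance, 9 of the 55 members at 100 TPM or more fell in X1 at 7dS and 0 rose, 9 of the 98 at 20 to 100 TPM fell and 3 rose, and 2 of the 47 under 20 TPM fell and 3 rose. The median changes of these groups were -0.73, -0.21 and 0.07 on the log2 scale. Transcripts outside the set were not split by abundance, so whether this gradient is particular to the members was not tested.

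In X2 most members fell with starvation. Of the 196 members tested (4 had an X2 mean under 1), 134 fell and 1 rose at 7dS against 1dS by limma, where 6.79% of all 15003 transcripts tested fell and 9.56% rose. This is 68.4% of the members tested. At 30dS against 1dS 120 fell (61.2%) and 1 rose, against 8.19% and 12.5% of all tested. The median member changed by -1.08 at 7dS, 2.11-fold lower, and by -0.90 at 30dS, 1.86-fold lower, beside 0.05 and 0.04 for all tested. Changes were negative for 186 of 196 members at 7dS and for 180 at 30dS, compared to 46.6% and 47.4% of all transcripts. The 7dS and 30dS comparisons share their 1dS libraries. The starved X2 libraries also entered the choice of members, so these shares are not independent of it.

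The fall was visible in every X2 library. Per library, the median member stood at log2(TPM + 1) of 2.91, 3.16, 2.94 and 3.35 at 1dS, of 2.13, 2.50, 1.91 and 2.64 at 7dS and of 2.56, 2.45, 2.04 and 2.84 at 30dS. The starved libraries all lay below the lowest of 1dS. The members summed to 0.537% to 0.891% of an X2 library at 1dS, to 0.257% to 0.337% at 7dS and to 0.411% to 0.452% at 30dS, with no overlap between any pair of times. For 124 of 196 members all 4 libraries of 7dS were below all 4 of 1dS, and for 0 all were above, where 5.92% and 9.08% of all transcripts tested had such a separation.

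**Figure D3:**
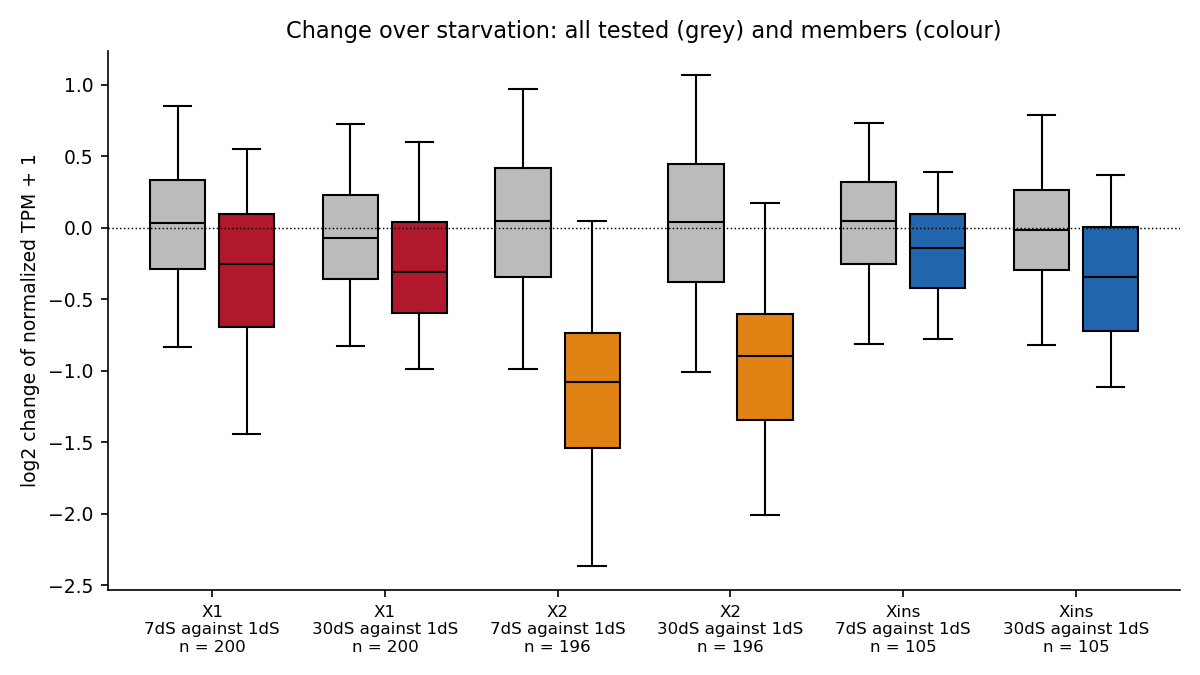
Log2 change of normalized TPM + 1 against 1dS in each population at 7dS and 30dS, for all transcripts tested (grey) and the members tested (colour, number below). Boxes show the quartiles and median, whiskers the 5th and 95th percentiles. The X2 members are centred at -1.08 and -0.90, while the X1 and Xins boxes overlap those of all transcripts.

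The count of falls in X2 depended on scaling and filter more than the direction did. After rescaling each library to equal totals 75 members fell at 7dS and 51 at 30dS, but this scaling also moved the median of all transcripts to 0.36 and 0.39, so that the median member stood at -1.09 and -0.91 relative to all transcripts, compared to -1.13 and -0.94 on the deposited scale. No single X2 library decided the counts, which ranged from 116 to 137 at 7dS and from 93 to 126 at 30dS when each was left out.

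The fall in X2 reached members of every abundance and place. Of the 55 with an X1 mean of 100 TPM or more 42 fell at 7dS, of the 98 with 20 to 100 TPM 72 fell, and of the 43 tested with less than 20 TPM 20 fell. Other transcripts were not split by abundance, so these counts have no share of like abundance beside them. Along the order of the rule, 35 of 49 tested fell at places 1 to 50, 37 of 48 at places 51 to 100, 32 of 49 at places 101 to 150 and 30 of 50 at places 151 to 200. Beyond the members 87 of 199 fell at places 201 to 400, 105 of 400 at places 401 to 800 and 205 of 1400 at places 1601 to 3000. The share thus declined along the order without a step at its edge. The order itself holds the starved X2 levels, so this decline is not independent of it. No such decline was seen in X1, where 8, 4, 3 and 5 of 50 members fell in these successive parts of the set and 24 of 200 fell at places 201 to 400.

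**Figure D4:**
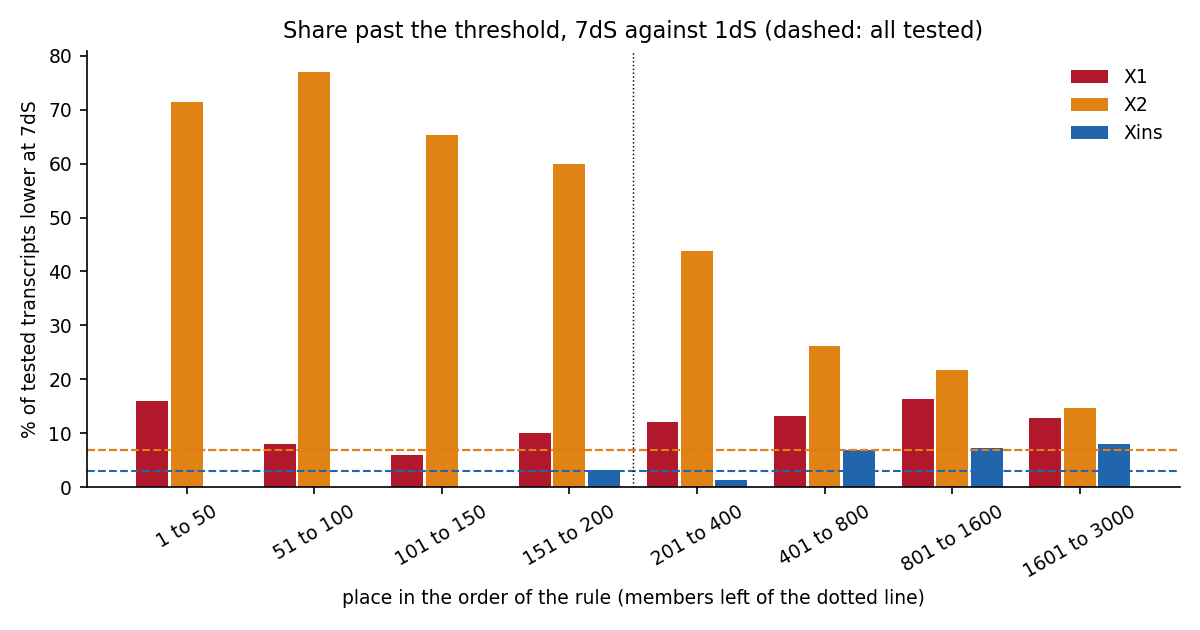
Share of tested transcripts that fell at 7dS against 1dS (limma, adjusted p under 0.1) in each population, by place in the order of the rule, with the members left of the dotted line. Dashed lines mark the share over all tested, 6.92% in X1 and 6.79% in X2 (nearly superimposed) and 3.06% in Xins. The X2 bars decline from over 70% in the first parts of the set toward the right, and the X1 bars stay between 6% and 16.3%.

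dresden_comp2921_c0_seq1 had the largest fall in X2. It was at 712, 550, 1814 and 217 normalized TPM at 1dS, at 142, 58.7, 125 and 35.5 at 7dS and at 66.6, 120, 132 and 41.1 at 30dS. Although the 1dS libraries differed widely among themselves, all starved libraries were lower. Its log2 change was -2.99 at 7dS (SE 0.61, limma adjusted p = 0.0137) and -2.93 at 30dS (SE 0.61, adjusted p = 0.0104). In X1 it was at 2202 ± 1438, 853 ± 630 and 901 ± 511 (SD, n = 4), with overlapping libraries and a change of -1.39 at 7dS (SE 0.64, adjusted p = 0.209). dresden_comp15022_c0_seq1 had the second largest fall, from 40.8 ± 31.7 to 3.93 ± 2.06 at 7dS and 4.22 ± 2.07 at 30dS (log2 change -2.77 and -2.67, SE 0.57, adjusted p = 0.0142 and 0.0117). Both were called in X2 under all 9 alternatives and without any 1 library.

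Few members rose in X2. dresden_comp648_c0_seq1 rose at 30dS from 327, 265, 394 and 238 normalized TPM to 471, 564, 494 and 457 (log2 change 0.72, SE 0.23, limma adjusted p = 0.0541), and it was also one of the rises in X1. Its call in X2 ended without X2 1dS replicate 2 or X2 30dS replicate 1 or 2. The rise at 7dS was absent without X2 1dS replicate 1, 2 or 3, X2 7dS replicate 1, 2 or 4, or X2 30dS replicate 1 or 4, and 3 members rose at either time without X2 1dS replicate 4. The single rise at 7dS was dresden_comp7966_c0_seq1, named after its values were seen, at 0, 0.398, 0.164 and 1.02 at 1dS and at 1.18, 1.44, 0.990 and 2.35 at 7dS (log2 change 0.86, SE 0.28, adjusted p = 0.07). The groups overlapped, and the call was kept in 4 of 9 fits that left out 1 library and still tested it.

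Transcripts highest in Xins alone moved in X2 at the same time. Of 200 such transcripts, chosen by the same rule with the populations exchanged, 165 were tested in X2. At 7dS 61 rose (37%) and 2 fell (1.21%), against 9.56% and 6.79% of all tested (median 0.97 on the log2 scale). At 30dS 62 rose (37.6%) and 2 fell (1.21%), against 12.5% and 8.19% of all tested, with a median of 0.94. Their sum went from 0.109% to 0.210% of an X2 library at 1dS to 0.268% to 0.456% at 7dS and 0.238% to 0.477% at 30dS. Of the 200 transcripts highest in X2 alone, 27 rose (13.5%) and 13 fell (6.5%) at 7dS, closer to the shares of all tested, with a median of -0.12. The part of these shifts in the fall of the X1 members was not tested.

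The lead of X1 over X2 changed accordingly. The median difference between X1 and X2 on the log2(TPM + 1) scale was 2.24 at 1dS, 2.92 at 7dS and 2.63 at 30dS. The same difference between X1 and Xins was 4.14, 3.71 and 3.95. In each case all 200 members were higher in X1 by the group means. These are descriptions, since the choice of members fixed their sign on average over the times.

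In Xins the members were near the lower end of the measured range. 105 of 200 had a mean of at least 1 and were tested, so what follows covers only those members that Xins holds in some amount. At 7dS against 1dS 1 fell and 0 rose by limma, where 3.06% of all 16996 transcripts tested fell and 2.05% rose. At an unadjusted p under 0.05 6 of the 105 fell and 0 rose, beside 1483 and 1425 of the 16996. At 30dS 6 fell and 0 rose, against 3.85% and 3.31% of all tested. At an unadjusted p under 0.05 9 fell and 2 rose, beside 1505 and 1498 of the 16996. The shares of unadjusted falls were thus not above those of all tested. The median change was -0.14 at 7dS and -0.34 at 30dS, beside 0.05 and -0.01 for all tested. After rescaling to equal totals the median at 7dS was 0.16, beside 0.38 for all tested, so its sign depends on the scale. The replicate numbers pair the Xins libraries of 7dS and 1dS, and with the number as a block 9 members fell at 7dS. The share of all transcripts that fell in this blocked fit is not given here. Whether 9 exceeds that share therefore cannot be said. The 6 falls at 30dS became 1 to 3 without Xins 1dS replicate 1, 2 or 3, Xins 7dS replicate 1 or 4, or Xins 30dS replicate 1, 2 or 3.

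The fall in Xins at 7dS was that of dresden_comp8732_c0_seq1, named after its values were seen. It was at 11.7, 8.13, 10.5 and 7.16 normalized TPM at 1dS, at 4.81, 4.79, 4.66 and 4.17 at 7dS and at 4.32, 5.32, 4.84 and 4.15 at 30dS. All starved libraries were below all of 1dS. Its log2 change was -0.87 at 7dS (SE 0.17, limma adjusted p = 0.0235) and -0.86 at 30dS (SE 0.17, adjusted p = 0.0175). It also fell at 7dS in X1 by 0.89 (SE 0.28, adjusted p = 0.0718) and in X2 by 1.16 (SE 0.21, adjusted p = 0.00871). The X1 call held in 4 of 9 alternatives, ended after each of the other scalings, and was lost without X1 1dS replicate 2 or 3, X1 7dS replicate 2, 3 or 4, or X1 30dS replicate 2. After rescaling to equal totals the X2 and Xins calls ended too.

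Falls in X1 and in X2 were set side by side. Of the 20 members that fell in X1 at 7dS 19 also fell in X2, which is 95% of the X1 falls and 14.2% of the 134 X2 falls. The exception was dresden_comp4103_c0_seq1, with a change of -1.38 in X2 (SE 0.66, limma adjusted p = 0.2). At 30dS all 6 X1 falls were among the 120 of X2. Beside this, 68.4% and 61.2% of all members tested fell in X2 at these times. Of the 12180 other transcripts tested in both populations 871 fell in X1 at 7dS, of which 407 (46.7%) also fell in X2, where 7.06% of these transcripts fell in all. At 30dS 542 of them fell in X1, of which 326 (60.1%) also fell in X2, where 8.72% fell in all. The X1 and X2 comparisons share no libraries, and the overlap was not tested. No member rose in one of X1 and X2 and fell in the other at the same time.

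**Figure D5:**
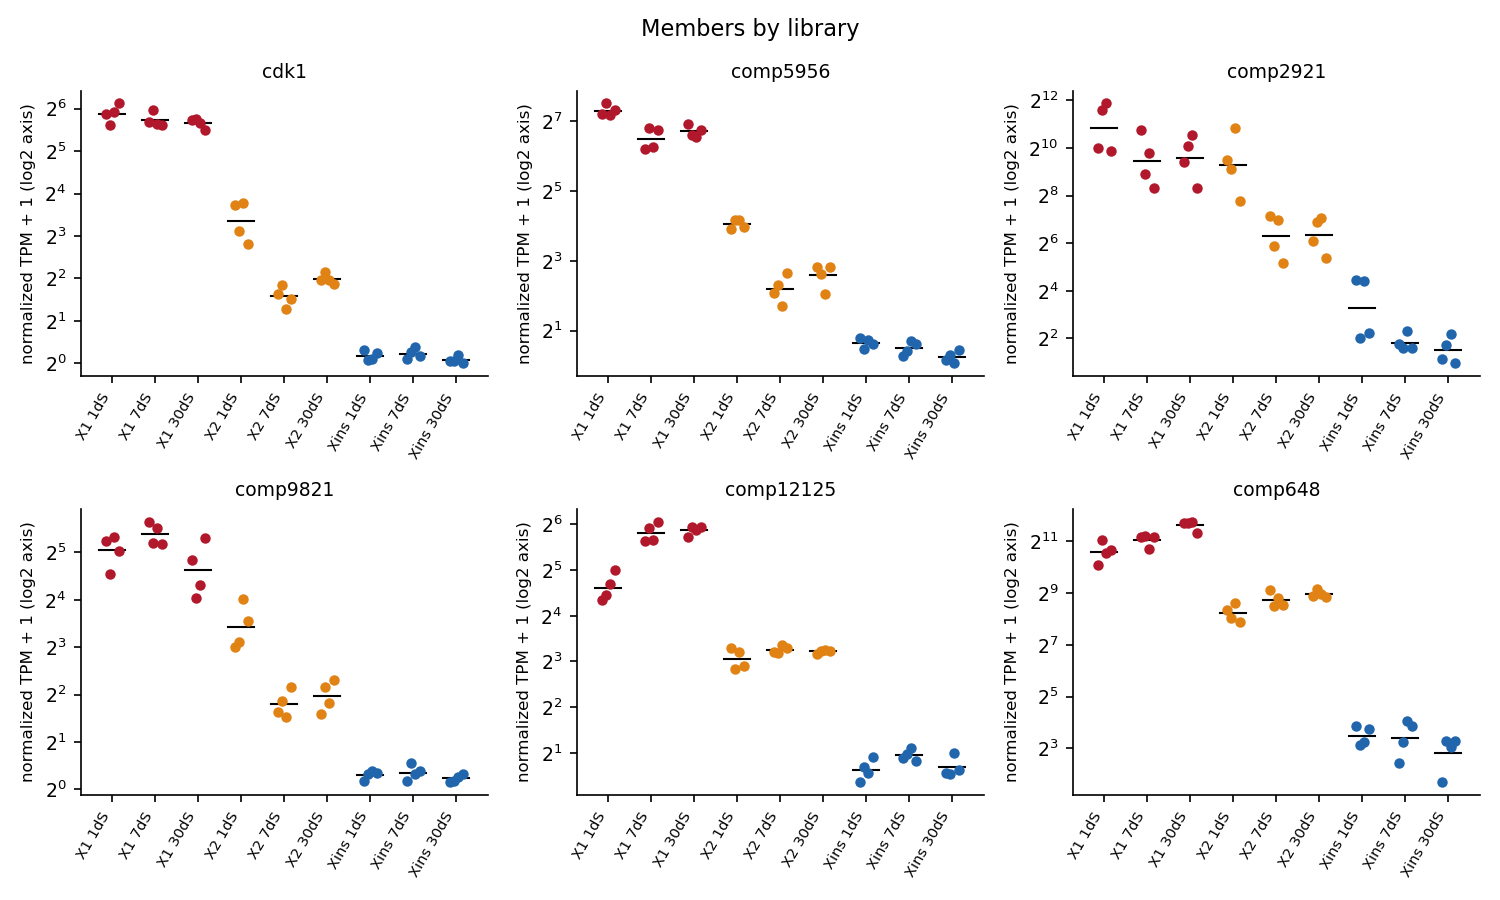
Normalized TPM + 1 (log2 axis) in every library for cdk1 and members dresden_comp5956_c0_seq1, dresden_comp2921_c0_seq1, dresden_comp9821_c0_seq1, dresden_comp12125_c0_seq1 and dresden_comp648_c0_seq1, titled by the middle of their identifier. Points are libraries of X1 (red), X2 (orange) and Xins (blue), lines are the means on the log2 scale. cdk1 stays between 44.0 and 68.7 in X1 while its X2 libraries drop from 6.04 to 12.7 at 1dS to at most 3.43 later, and dresden_comp12125_c0_seq1 rises in X1 with level X2 libraries.

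Whether the change itself differed between populations was tested as an interaction of population and time in limma, over all 36 libraries rescaled to equal totals and 17034 transcripts. Between X1 and X2, the change at 7dS was higher in X1 (a smaller fall or a larger rise) for 24 of 200 members (12%) and lower for 0, where 0.235% and 1.27% of all tested were so called. At an unadjusted p under 0.05 these were 70 and 0 members, beside 253 and 1261 of all 17034 transcripts. The median difference was 0.70 on the log2 scale, beside -0.15 for all tested. Members made up 24 of all 40 transcripts called higher. The choice of members favours this direction, because a wide lead of X1 over X2 at the starved times raises a transcript in the order. At 30dS the change was higher in X1 for 16 members (8%) and lower for 0, against 0.17% and 2.55% of all tested, with a median of 0.47 beside -0.31. At an unadjusted p under 0.05 it was higher for 47 and lower for 0, beside 158 and 1575 of the 17034.

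These counts moved with the fit. At 7dS they were 14 without X2 1dS replicate 3, 1 when only the 16 libraries concerned were fitted, and 37 to 53 under other scalings. At 30dS they were 8 to 10 without X1 1dS replicate 1, X1 30dS replicate 1 or 2, X2 1dS replicate 3 or X2 30dS replicate 1 or 4. The number called lower in X1 was 0 in each of these fits.

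cdk1 was among the members whose change differed. The difference between X1 and X2 at 7dS was 1.48 on the log2 scale (SE 0.31, limma adjusted p = 0.0128), kept without any 1 of the 36 libraries and lost with a pseudocount of 5 or in the 16 libraries alone. At 30dS it was 0.88 (SE 0.31, adjusted p = 0.194). dresden_comp9821_c0_seq1 had one of the 2 largest differences at 7dS, 1.81 (SE 0.46, adjusted p = 0.0459). In X1 it was at 37.1, 22.4, 39.3 and 31.6 normalized TPM at 1dS and at 48.9, 35.9, 44.5 and 35.4 at 7dS, which overlapped. In X2 it was at 7.03, 7.65, 15.3 and 10.6 at 1dS and at 2.09, 2.65, 1.90 and 3.44 at 7dS, all lower. The call was lost without X1 1dS replicate 2 or X2 7dS replicate 1 or 3. dresden_comp15022_c0_seq1 had the other, 1.83 at 7dS (SE 0.49, adjusted p = 0.0655), with X1 libraries at 102 ± 61.1 at 1dS and 60.3 ± 36.2 at 7dS. Its call was lost without X1 1dS replicate 1 or 4, X1 7dS replicate 1 or 3, X2 1dS replicate 1, 2 or 3, or X2 7dS replicate 2 or 4.

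Between X1 and Xins 0 members differed at 7dS by limma in either direction, where 0.517% of all tested were higher in X1 and 1.14% lower. At an unadjusted p under 0.05 4 of 200 were higher and 13 lower, beside 401 and 1290 of all 17034 tested, which are similar shares. The median difference was -0.17 beside -0.20 for all tested. Of the 200 members 95 had an Xins mean under 1 and entered this test through their X1 level, so for them X1 was set against values near the lower end of the scale. On deposited values 2 members were called higher and 5 lower at 7dS, and with a pseudocount of 5 these were 3 and 2. At 30dS 2 were higher and 1 lower, against 0.552% and 1.36% of all tested. These 3 are named after their values were seen, and the counts became 1 or 3 higher and 0 or 2 lower when some libraries were left out. dresden_comp12125_c0_seq1 was among them, but with an Xins mean under 1 it entered through X1, and its value largely restates the rise in X1 given above. It was at 0.560 ± 0.245 in Xins at 1dS and 0.616 ± 0.263 at 30dS (difference 1.29, SE 0.36, limma adjusted p = 0.0778), a call lost without X1 1dS replicate 1, 2 or 3, X1 30dS replicate 1, 2 or 4, Xins 1dS replicate 2 or 4, or Xins 30dS replicate 1 or 2. dresden_comp17332_c0_seq1 was at 9.50 ± 3.32 in X1 at 1dS and 14.8 ± 4.5 at 30dS, and at 2.52 ± 0.904 and 0.531 ± 0.525 in Xins (difference 1.75, SE 0.38, adjusted p = 0.0173), a call kept in all 7 alternatives and without any 1 library. dresden_comp5862_c0_seq1 was lower at 30dS in X1, with 841 ± 497 at 1dS and 308 ± 154 at 30dS, while Xins was at 74.2 ± 49.0 and 77.2 ± 38.9 (difference -1.77, SE 0.48, adjusted p = 0.0672). That call was lost without X1 1dS replicate 1 or 3, X1 30dS replicate 1 or 4, Xins 1dS replicate 2 or 4, or Xins 30dS replicate 1, 2 or 3.

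Between 30dS and 7dS no member passed the threshold in any population by limma. In X1 0 of 200 rose and 0 fell, where 0% and 0.00754% of all tested did, with a median change of 0.03. At an unadjusted p under 0.05 2 rose and 2 fell, beside 143 and 251 of all 13269. In Xins 0 of 105 rose and 0 fell, where 0.124% and 0.0177% of all tested did. Unadjusted, 0 rose and 1 fell, beside 275 and 165 of all 16996. In X2 0 of 196 rose and 0 fell, where 0.12% and 0.00667% did, and 1 rose without X2 1dS replicate 4. Unadjusted, 14 rose and 0 fell there, beside 205 and 84 of all 15003. The median X2 member nevertheless changed by 0.12 beside -0.01 for all tested, and the change was positive for all but 40 of the 196. cdk1 had such a value, with a change of 0.41 (SE 0.23, adjusted p = 1) and its 4 libraries of 30dS above the 4 of 7dS.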

How the data were processed

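RNA was measured in FACS-sorted X1, X2 and Xins cells of planarians at 3 starvation times, 36 libraries in all. The authors prepared TruSeq libraries, sequenced single-end reads of 51 cycles and removed ribosomal reads. They estimated TPM with kallisto 0.43.0 on the Dresden transcriptome. The deposited values are a signal, normalized TPM, in 1 table per population for 26558 transcripts, and how these tables were normalized is not given in the sources used here. It is not a count, so no count model was used and no counting error is known. All columns were mapped by their names to the labels (0 unused).

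Members followed the stated rule. The members and the lists were chosen with earlier results of these data known. Times were compared within a population with limma 3.58.1 (R 4.3.3, intensity trend) on log2(value + 1) for transcripts averaging 1 or more, adjusted by Benjamini-Hochberg over all tested, threshold 0.1. Interactions used the 36 libraries rescaled to 1000000. Named transcripts are members with a symbol, the 5 with the largest rule difference, the 2 largest non-overlapping rises and falls per population and time against 1dS with a mean of at least 10, the 2 largest interaction differences per direction at 7dS, and 2 on each side of the edge of the set. Members of the study's lists were added, and others are marked where named after their values were seen.

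Replicate numbers were checked by the correlation of deviations from group means. Every same-numbered pair exceeded 0.1 for X1 30dS with 7dS and for Xins 7dS with 1dS and with 30dS, where the numbers were taken to pair the libraries. The fits were tested on simulated data, where changes within a population were recovered more often than interactions. All of these fits, at 7dS against 1dS, missed most of the smaller differences put into the data, and the interaction missed the largest share. The share of false calls was above the threshold in X2, in Xins and in the interaction, but not in X1. Other scalings, pseudocounts, filters, library subsets and left-out libraries were tried. Plots used matplotlib 3.10.9 under Python 3.11.15.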

Additional observations from a re-analysis of the deposited data

Results flagged for a closer look

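In 10 of 186 groups of 4 libraries 1 library stood apart from the rest by Dixon's criterion, where chance gives about 1 in 20. The highest library stood apart for dresden_comp4103_c0_seq1 in X1 at 1dS (165 normalized TPM, next 61.6), dresden_comp7744_c0_seq1 in X1 at 7dS (215, next 126) and in X2 at 30dS (13.7, next 9.47), dresden_comp18778_c0_seq1 in X2 at 1dS (6.10, next 3.96), dresden_comp17332_c0_seq1 in X1 at 7dS (23.2, next 10.7) and dresden_comp12125_c0_seq1 in Xins at 30dS (1.01, next 0.532). The lowest library stood apart for dresden_comp648_c0_seq1 in X1 at 7dS (1670, next 2289) and at 30dS (2588, next 3343), dresden_comp7682_c0_seq1 in X2 at 1dS (9.12, next 10.8) and dresden_comp16942_c0_seq1 in X1 at 7dS (11.3, next 16.1).

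The change over starvation differed between populations by the interaction in limma for the following members. Between X1 and X2 at 7dS it was higher in X1 for cdk1 (dresden_comp11265_c0_seq1) by 1.48 on the log2 scale (adjusted p = 0.0128), for dresden_comp15022_c0_seq1 by 1.83 (adjusted p = 0.0655) and for dresden_comp9821_c0_seq1 by 1.81 (adjusted p = 0.0459). At 30dS dresden_comp15022_c0_seq1 differed by 1.61 (adjusted p = 0.0975), a call kept in 1 of 7 alternatives. Between X1 and Xins at 30dS the difference was 1.29 for dresden_comp12125_c0_seq1, 1.75 for dresden_comp17332_c0_seq1 and -1.77 for dresden_comp5862_c0_seq1 (adjusted p = 0.0778, 0.0173 and 0.0672). dresden_comp12125_c0_seq1 had an Xins mean under 1 and entered this test through X1, so its value largely restates its rise in X1.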

How the results depend on the processing

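The direction of the members in X2 held in every setting: their median log2 change was between -1.47 and -0.69 at 7dS and between -1.11 and -0.51 at 30dS. The named calls were refitted in 1419 runs, of which 1169 kept the call, 250 lost it and 0 reversed. Of the 200 members 153 to 197 remained under other rules of choice and 189 to 200 without 1 library. The cause of the following shifts was not tested. All counts are members called at 7dS or 30dS against 1dS. The share of all transcripts called in each of these fits is not given here. A change in a count is therefore no result about the members as against other transcripts.

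After rescaling to equal totals 3 fell in X1 at 7dS and 3 rose at 30dS, 75 and 51 fell in X2, 0 fell in Xins at 7dS, and 1 rose and 2 fell in Xins at 30dS. The Xins median at 7dS turned to 0.16. With median-of-ratios scaling 11 and 2 fell in X1 and 0 rose in X2 at both times. Differences then numbered 37 and 43 (X1 higher than X2), 2 higher and 2 lower (X1 and Xins, 7dS) and 4 and 0 (30dS). With quantile normalization 5 fell in X1 at 7dS, 10 rose and 3 fell at 30dS, and 2 and 3 fell in Xins. On deposited values the differences were 53 and 48 (X1 and X2), 2 higher and 5 lower (X1 and Xins, 7dS) and 5 and 0 (30dS). With no filter 10 fell in X1 at 7dS, and 3 rose and 3 fell at 30dS. With a mean of at least 5, 12 fell in X1 at 30dS, 0 rose and 86 fell in X2 at 7dS, 72 fell at 30dS, and 2 fell in Xins at 30dS. When both times alone were fitted 9 and 1 fell in X1, 0 rose in X2 at 7dS, and 0 and 3 fell in Xins. In fits of the 16 libraries of a contrast 1 and 8 differed between X1 and X2, and 1 higher and 0 lower between X1 and Xins at 30dS. A pseudocount of 0.1 gave 13 and 6 between X1 and X2 and 1 and 0 between X1 and Xins at 30dS. A pseudocount of 5 gave 3 and 2 at 7dS and 5 and 4 at 30dS between X1 and Xins.

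With the replicate number as a block 10 rose and 52 fell in X1 at 7dS, 34 fell at 30dS, 4 and 3 rose in X2, 9 fell in Xins at 7dS, and 4 rose and 11 fell at 30dS. Differences numbered 84 and 48 between X1 and X2, and 5 higher and 12 lower (7dS) and 6 and 13 (30dS) between X1 and Xins. Same-numbered libraries deviated together in all pairs for 6 of 9 group pairs across populations, none of them at 1dS, and for 3 of 9 across times. 30 and 20 of 36 libraries correlated best with their own number. By this criterion the numbers pair Xins 7dS with 1dS but no other time contrast with 1dS. In the interactions the block joins populations within a time. There all pairs deviated together at 7dS and 30dS, but at 1dS only 2 of 4 did for X1 with X2 and for X1 with Xins. Which interaction fit is more apt was not tested. The block changed no call between 30dS and 7dS.

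Leaving out 1 library gave 3 to 9 rises and 7 to 20 falls in X1 at 7dS, 3 to 6 and 0 to 8 at 30dS, 0 to 3 and 116 to 137 in X2 at 7dS, 0 to 3 and 93 to 126 at 30dS, 0 to 1 rises in X2 from 7dS to 30dS, and 1 to 5 falls in Xins at 30dS. Differences ranged from 14 to 33 and from 8 to 22 (X1 and X2), from 0 to 1 higher (X1 and Xins, 7dS) and from 1 to 3 higher and 0 to 2 lower (30dS). The number of reads per library is not known, so low values in X2 and Xins carry an error that could not be stated.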
